A study of Papio anubis with 60 samples.

Results

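In pluripotent cells of the olive baboon, 21 wide H3K9me3 domains were shared by induced pluripotent stem cells (iPSC) and embryonic stem cells (ESC) and carried little iPSC H3K27me3. They were chosen by their measured peak coverage. ESC H3K9me3 peaks on chromosomes 1 to 18 and 20 at most 3 kb apart were joined into domains, and a domain was kept if it was 10 kb or longer, iPSC H3K9me3 peaks covered at least 50% of its length and iPSC H3K27me3 peaks covered under 5%. The 21 were 1.49% of 1411 shared wide domains and 0.457% of 4597 wide ESC domains on these chromosomes, out of 176675 ESC domains of any width on all sequences. They ran to 708 kb in sum, and their lengths lay between 10.3 kb and 241 kb with a median of 13.97 kb. The data did not bear out a reading of these domains as free of H3K27me3 in iPSC: 20 of the 21 held at least 1 iPSC H3K27me3 peak. They are therefore described as low in iPSC H3K27me3.

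The study profiled 4 histone marks, H3K9me3, H3K27me3, H3K4me3 and H3K27ac, by chromatin immunoprecipitation with sequencing (ChIP-seq) in iPSC lines 160-2 and M14939#3, which were reprogrammed from somatic cells, and in ESC lines B4 and B15. All lines were of Papio anubis and were kept on feeder cells, and each library was made from 50000 cells with chromatin cut by micrococcal nuclease. The labels list 3 replicates per line and mark, with 12 inputs among the 60 libraries. A single deposited peak list stood for each cell type and mark, so a list has no replicate, its depth is unknown, no test was possible, and cell type cannot be told apart from line. All differences given are between lists, and the 95% Wilson intervals cover counting error only.

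H3K9me3 is written by SETDB1, SUV39H and related enzymes and is bound by HP1 proteins, which compact chromatin over silenced repeats, zinc finger gene clusters and pericentromeric DNA. H3K27me3 is written by Polycomb repressive complex 2 and lies over silent developmental genes, and the pair of marks usually occupies different regions. H3K4me3 marks active and poised promoters, and H3K27ac marks active promoters and enhancers. The lists hold positions and no gene names, and the sources used here do not give their genome build, so the domains are named by position as deposited, counted from 1, and no genes are assigned to them.

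Low iPSC H3K27me3 was uncommon where iPSC H3K9me3 was broad. Of the 1411 shared domains, 21 had under 5% of their length under iPSC H3K27me3 peaks, 61 had 5 to 10%, 410 had 10 to 20%, 444 had 20 to 30%, 369 had 30 to 50% and 106 had 50% or more. Median iPSC H3K27me3 coverage was 2.92% in the 21 domains and 24.2% in the other 1390 shared domains, a difference that the choice itself sets. It was 10.4% in the 3186 wide ESC domains with under 50% iPSC H3K9me3, of which 21.4% lay under the 5% limit. As a reference level, iPSC H3K27me3 peaks covered 3.36% of these 19 chromosomes. Among the narrower shared domains, of 5 to 10 kb, 209 of 3784 (5.52%) were under 5%.

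The limits fell within a continuous range of values, and the domains given for each limit met the other limits. Just inside the H3K27me3 limit lay the domains at chr11:65897384-65909980 with 4.99%, chr17:2521837-2534515 with 4.95% and chr6:46285380-46326724 with 4.68%. Just outside it lay chr3:54838917-54874311 with 5.06%, chr6:46169369-46238116 with 5.07% and chr6:4954119-4964697 with 5.11%. For iPSC H3K9me3, the nearest inside were chr7:99126666-99142429 with 50.01%, chr5:94041936-94053535 with 50.09% and chr4:35175804-35187293 with 50.4%. The nearest outside were chr3:20724122-20735133 with 49.7%, chr12:114449807-114468899 with 49.6% and chr14:38831169-38841764 with 49.6%. The shortest domains kept were 10275, 10409 and 11490 bp long, and the longest left out for length, on chromosomes 10, 1 and 2, were 9927, 9807 and 9806 bp long.

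**Figure D1:**
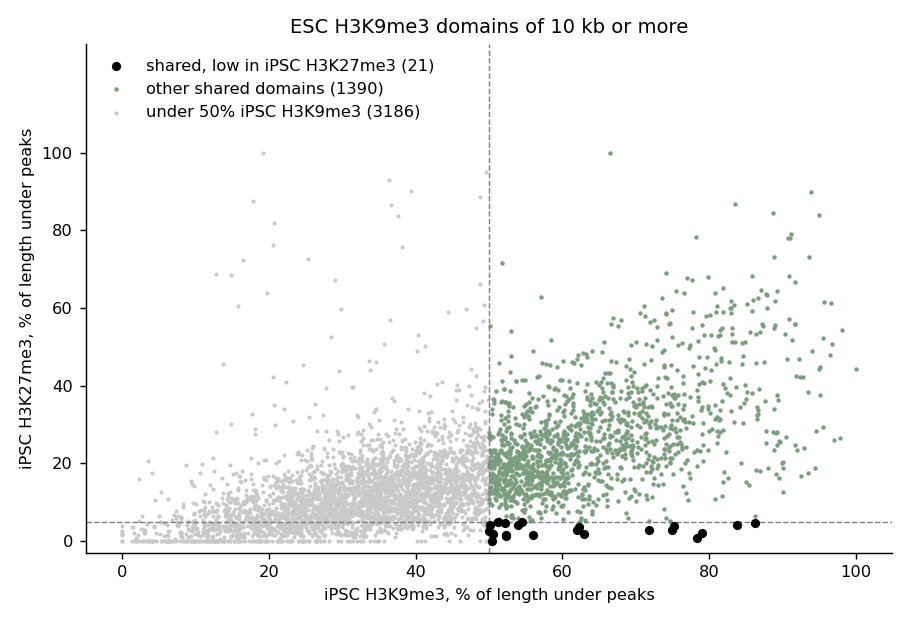
Percent of length under iPSC H3K9me3 peaks (x axis) and under iPSC H3K27me3 peaks (y axis) for each of 4597 ESC H3K9me3 domains of 10 kb or more; dashed lines mark the 50% and 5% limits. The 21 black points lie under a cloud of 1390 other shared domains, with 61 of those between 5% and 10%.

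The widest domain stood apart in size. At chr6:45759791-46001178 it spanned 241 kb, ranked 9 in length among all 4597 wide domains, and consisted of 87 ESC H3K9me3 peaks with 80 iPSC peaks over them. H3K9me3 covered 74.9% of it in iPSC and 73.7% in ESC. The next in length was chr5:16909273-16968415, 59.1 kb long, with H3K9me3 over 62.2% in iPSC and 66.7% in ESC. Behind it came 4 domains of 41.3 to 47.1 kb, 2 of them on chromosome 6 and 2 on chromosome 8. At chr6:46060912-46107967 coverage was 83.9% in iPSC and 86.5% in ESC. At chr6:46285380-46326724 it was 86.2% in iPSC, the most of any of the 21, and 83.0% in ESC. The wider of the chromosome 8 domains, at chr8:42301226-42346014, had 71.8% in iPSC and 82.3% in ESC, and its neighbour at chr8:42253320-42297696 had 75.2% in iPSC and 78.5% in ESC. These values put both chromosome 6 and both chromosome 8 domains well inside the 50% limit.

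The remaining members of the 10 widest were on chromosomes 1, 2 and 7. The 38.6-kb domain at chr1:133372729-133411322 had 61.9% iPSC and 81.9% ESC H3K9me3 coverage. At chr1:115638193-115661590, 23.4 kb long, coverage was 79.0% in iPSC and 92.4% in ESC, the most in ESC. The 16.01-kb domain at chr2:119978560-119994567 had more in iPSC, 78.4%, than in ESC, 61.3%. The 15.8-kb domain at chr7:99126666-99142429 had 50.01% in iPSC and 56.2% in ESC.

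Over all 21, H3K9me3 covered a median of 55.9% of the length in iPSC (range 50.01 to 86.2%) and 66.8% in ESC (43.5 to 92.4%). Coverage was higher in iPSC in 6 domains and higher in ESC in 15, and in 13 the cell types were within 10 percentage points of each other. The difference, iPSC minus ESC, had a median of -4.45 percentage points and ran from -24.4 to 17.1. In the other shared domains its median was -5.13 percentage points. Both H3K9me3 lists entered the choice, so these values are a description. The fold enrichment and the −log10 q printed here are the authors' values of single peaks, used to describe or filter peaks within a list. The strongest H3K9me3 peak of a domain had a median fold of 3.47 in iPSC (2.53 to 4.32) and 3.56 in ESC (2.35 to 4.92). The 95th percentile of all peaks on these chromosomes was 3.50 in the iPSC list and 3.61 in the ESC list. The lowest maxima of both lists were in the domain at chr8:78460013-78473792.

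**Figure D2:**
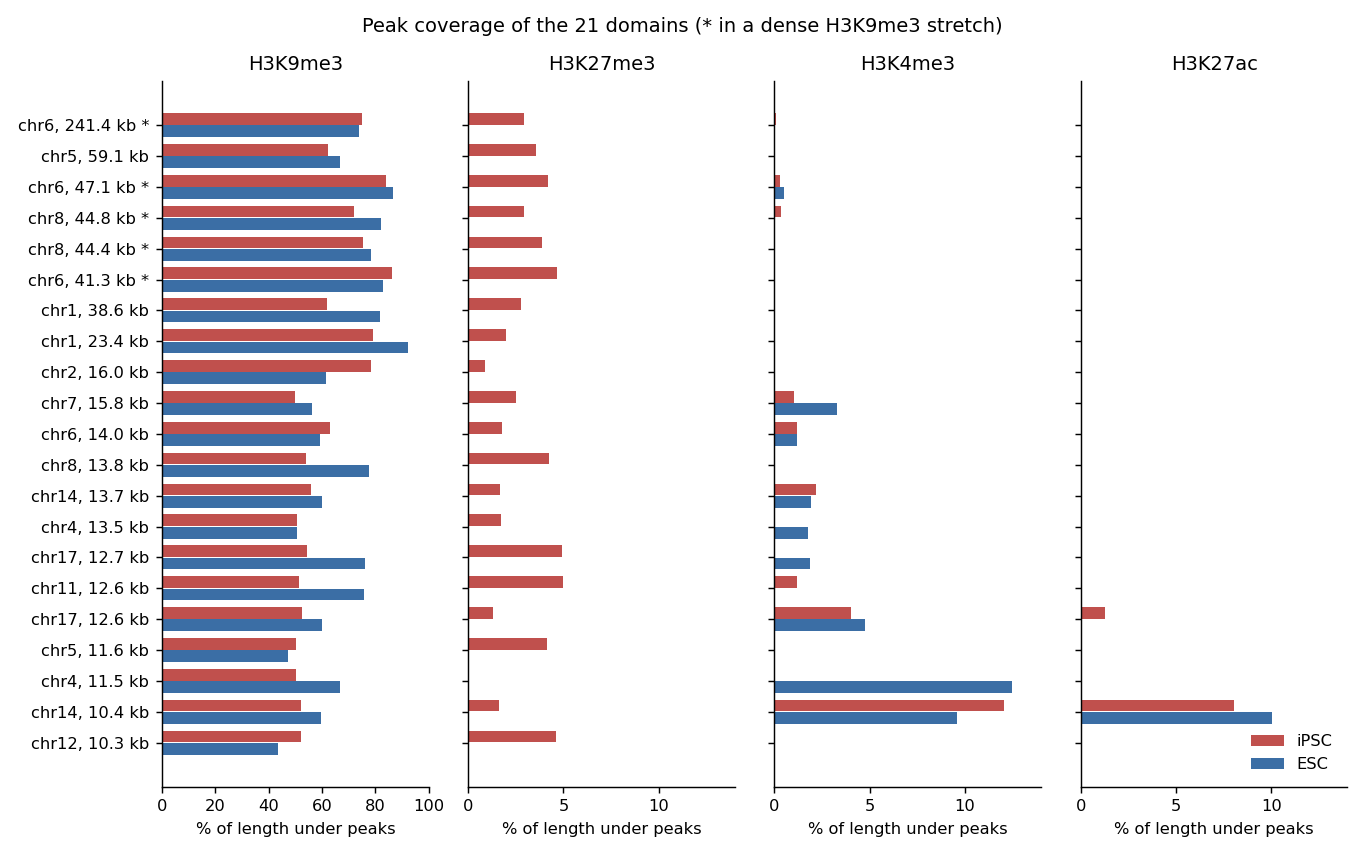
Percent of the length of each of the 21 domains under peaks of 4 marks (x axes; the H3K9me3 panel has its own scale), with iPSC in red above ESC in blue, widest domain at the top. H3K9me3 is broad in both, H3K27me3 is present in iPSC in 20 domains and in ESC in none, and H3K27ac appears in 2 domains. The ESC H3K27me3 list holds fewer peaks than the iPSC list.

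The iPSC H3K27me3 that these domains did hold was short and scattered. It came as 69 peaks with a median width of 287 bp, of which the widest was 1351 bp, and 22.02 kb of the summed 708 kb lay under them. A peak is called firm where its −log10 q is at least 2 in the broad lists (H3K9me3, H3K27me3) or at least 5 in the narrow ones (H3K4me3, H3K27ac). Firm iPSC H3K27me3 peaks were present in 18 of the 21 domains, against a background of 85.3% of all 4597 wide domains, a mark that the choice used. The highest fold was 4.12, in the 241-kb domain, which alone held 23 of the peaks, and the median fold was 2.92. Of the H3K27me3 base pairs, 96.6% lay on iPSC H3K9me3 peaks, and in the other shared domains 96.5% did. iPSC H3K9me3 peaks covered 69.8% of the summed length of the 21 and 67.6% of that of the other shared domains. The domain with none was chr4:35175804-35187293, and the lowest value above 0 was 0.868%, at chr2:119978560-119994567. Of the 69 peaks, 22 (31.9%) lay in the outer 10% at the left or the right edge, both ends counted together. This share was not tested against an even spread along the domains.

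Much of the length fell in 2 stretches that were dense in H3K9me3. In 5 domains, 3 on chromosome 6 and 2 on chromosome 8, H3K9me3 peaks covered over 30% of the 500 kb on either side, with 39.7 to 79.95% in iPSC and 38.5 to 79.7% in ESC. These 5 made up 59.1% of the summed length. The other 16 had 3.36 to 10.95% in iPSC and 4.87 to 16.08% in ESC in the same flanks. Nothing lay between 10.95% and 39.7% in iPSC. Flank coverage defines the groups, and the flanks of domains within a stretch overlap, so the gap is a description. This measure and its 30% limit were chosen after the values had been seen.

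Among 2533 bins of 1 Mb, the bin from 42 to 43 Mb of chromosome 8 had the highest ESC H3K9me3 coverage. Peaks covered 80.8% of it in iPSC and 81.1% in ESC, against medians over all bins of 5.48% in iPSC and 7.59% in ESC. The bin from 46 to 47 Mb of chromosome 6 ranked 8, with 42.999% in iPSC and 41.98% in ESC. In all, 11 bins reached 30% in both cell types. Of the 12 bins with most ESC H3K9me3, that on chromosome 6 had the lowest iPSC H3K27me3 coverage, 5.66%, and the chromosome 8 bin had 15.6%. Both bins held 2 of the low domains each, so the choice bears on these values.

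Within each stretch the low domains stood beside wide domains with more iPSC H3K27me3. On chromosome 8, 2 of 14 wide domains were low, with 3.90% and 2.94%, and the other 12 had 14.5 to 28.4% with a median of 19.4%. The neighbours on either side, at chr8:42189857-42217722 and chr8:42349268-42446500, had 14.8% and 17.5%. On chromosome 6, 3 of 14 were low, with 2.92%, 4.16% and 4.68%. There the 9 other shared domains had 5.07 to 17.8% with a median of 12.7%, and 3 of them, with 5.07%, 5.15% and 5.87%, lay near the limit. The 241-kb domain was flanked by domains with 17.8% and 14.3%. The choice itself set the low domains under 5% and the other shared domains at 5% or more, so this order was fixed. On chromosome 8 the gap between them was over 10 percentage points, and on chromosome 6 it ran from 4.68% to 5.07%.

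**Figure D3:**
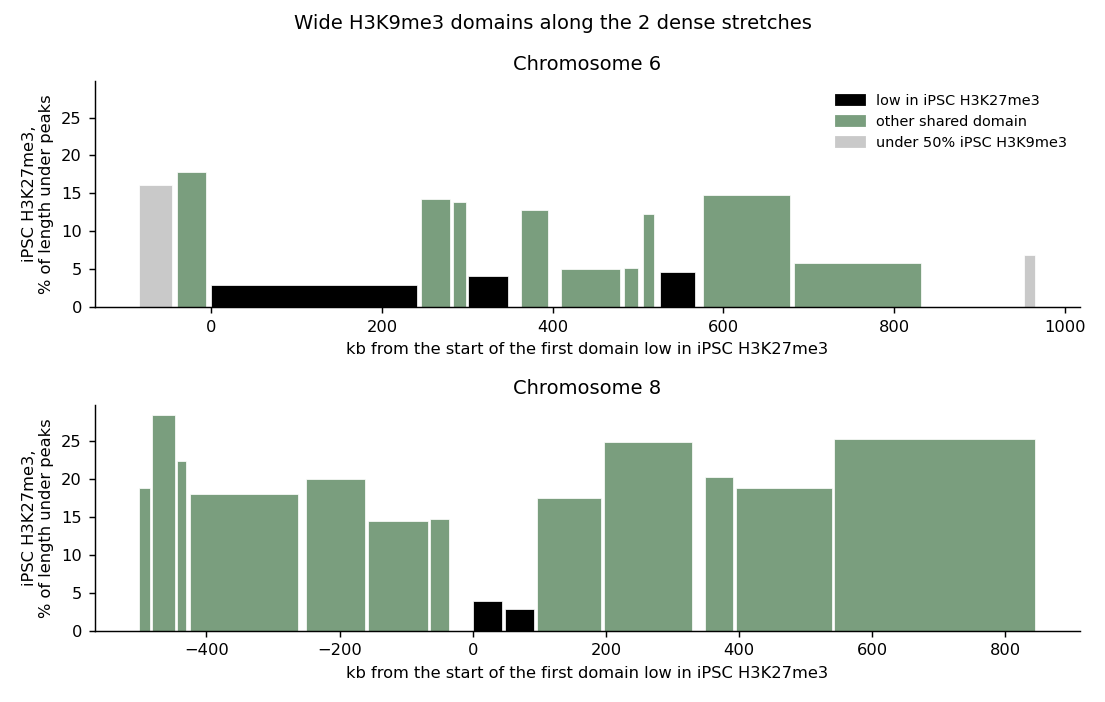
Percent of length under iPSC H3K27me3 peaks (y axis) in every wide ESC H3K9me3 domain within 500 kb of the low domains on chromosomes 6 and 8, drawn to scale against the distance in kb from the start of the first low domain (x axis). Black bars are the 3 and 2 low domains, green bars other shared domains and grey bars domains with under 50% iPSC H3K9me3.

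The other 16 domains had less H3K9me3 around them on average. Their H3K9me3 coverage in the first 5 kb outside the edges averaged 3.35% in iPSC and 2.00% in ESC, a gap that joining within 3 kb partly sets. From 5 to 30 kb outside it was 10.9 to 14.2% in iPSC and 12.98 to 14.4% in ESC. Among these 16, 2 domains on chromosome 1 had denser surroundings: H3K9me3 covered 33.3% in iPSC and 39.5% in ESC of the 50 kb on either side of chr1:133372729-133411322, and 25.8% and 24.1% beside chr1:115638193-115661590. In the dense stretches, coverage was 8.85% in iPSC and 10.7% in ESC in the first 5 kb. It was highest at 35 to 40 kb, with 79.97% in iPSC and 79.6% in ESC. In the last step, up to 50 kb, it was 61.7% and 58.7%. iPSC H3K27me3 reached 18.9% at 15 to 20 kb outside the 5 dense-stretch domains and was between 0.10% and 4.98% outside the other 16. With each of the 16 cut into 10 equal parts, the parts at its left and right ends had 51.9% and 48.0% H3K9me3 coverage in iPSC, against 70.7% and 73.4% in ESC, whose peaks set the ends.

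**Figure D4:**
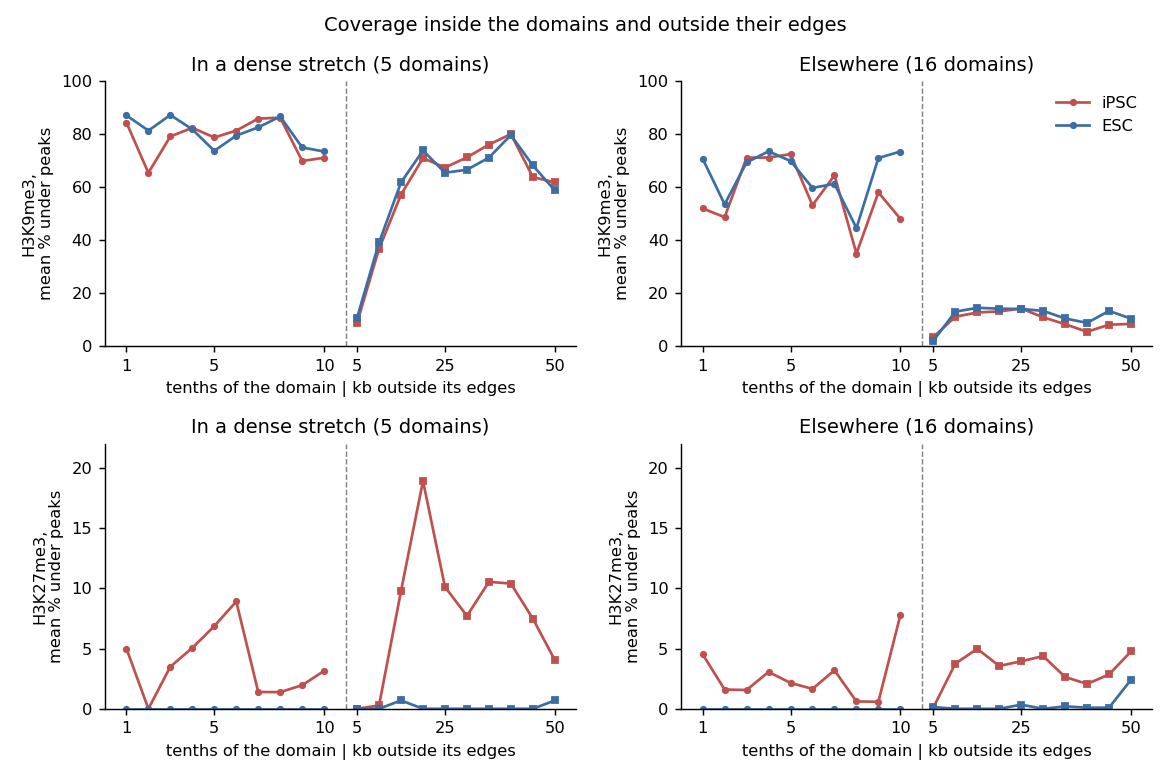
Mean percent of length under H3K9me3 peaks (top) and H3K27me3 peaks (bottom) in 10 equal parts of the domain and in 5-kb steps outside its edges (x axis, both sides averaged), in iPSC (red) and ESC (blue), for the 5 dense-stretch domains and the 16 others. Outside the edges in the dense stretches, H3K9me3 is 79.97% in iPSC and 79.6% in ESC in the highest step. In the last step there it is 61.7% and 58.7%. Outside the 16 others it stays under 15%.

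Borders matched closely in most domains when iPSC peaks were joined in the same way. Both H3K9me3 lists entered the choice, which partly sets this match, and edges of the other shared domains were not measured. In 17 of the 21 a single iPSC domain overlapped, and in 4 there were 2. Of 42 edges, 32 lay within 1 kb of the iPSC edge and 18 within 200 bp, with a median offset of 252 bp. In 13 of the 21 domains both edges lay within 1 kb. The 241-kb domain on chromosome 6 was matched by an iPSC domain of 241 kb whose edges were 11 and 93 bp away. The 16.01-kb domain on chromosome 2 was met to within 21 and 15 bp. Larger offsets were found at chr1:133372729-133411322, where the iPSC domain ran 147 kb and began 114 kb further left, at chr1:115638193-115661590, where it ran 26.007 kb further right, and at chr6:46060912-46107967, where it began 17.8 kb further left.

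H3K27me3 in ESC, which the choice did not use, was not detected in any of the 21 domains. No ESC H3K27me3 peak, firm or not, overlapped them, so the Wilson interval ran up to 15.46%, and a floor of 3 counts in 21 would be 14.3%. The background is 9.33% of all 4597 wide domains with a firm peak, which lies under both limits, so the 0 cannot be set apart from the background at this number of domains. Among the other shared domains 8.99% had a firm ESC peak, and 85.5% of all 1411 shared domains had no ESC H3K27me3 peak at all. The ESC H3K27me3 list was also the smaller, with 48730 peaks on these chromosomes against 125610 in the iPSC list. ESC H3K27me3 peaks covered 2.03% of these chromosomes, against 3.36% for iPSC.

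H3K4me3 was counted in a smaller share of these domains than of other wide domains, by a margin that depended on how the domains were joined. Firm iPSC H3K4me3 peaks were present in 6 of 21 (28.6%, interval 13.8 to 49.96%), against a background of 53.1% of all wide domains and 55.9% (53.3 to 58.5%) of the other shared ones. In ESC it was 7 of 21 (33.3%, 17.2 to 54.6%), against 62.7% of all wide domains and 64.0% (61.4 to 66.4%) of the other shared ones. In neither cell type did the interval reach the value of the other shared domains, but with ESC peaks joined within 5 kb it did in both. The shares were then 38.9% (20.3 to 61.4%) in iPSC and 50% (29.03 to 70.97%) in ESC of 18 domains, against 56.2% and 68.4% of the other shared ones. With stricter peaks (−log10 q of at least 10) it did in iPSC, with 14.3% (up to 34.6%) against 28.2%. With every peak counted, 42.9% of the 21 held one in iPSC and 42.9% in ESC, against 68.6% and 76.8% of the other shared domains. Firm peaks were in both cell types in 5 domains, in iPSC alone in 1 and in ESC alone in 2.

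The shares were also taken by width, and the difference between the width groups was not tested. Of the 8 domains of 20 kb or more, 1 held a firm H3K4me3 peak in iPSC and the same number in ESC (12.5%, 2.24 to 47.1%), while 62.9% and 63.5% of the 345 other shared domains of that width did. Of the 13 domains of 10 to 20 kb, 38.5% (17.7 to 64.5%) held one in iPSC and 46.2% (23.2 to 70.9%) in ESC, against 53.6% and 64.1% of 1045 other shared domains. These last intervals take in the values of the other shared domains, and they overlap those of the wider group. The intervals treat each domain as a separate draw, although 5 of them lie in 2 stretches. Without these 5 the shares were 31.3% (14.2 to 55.6%) in iPSC and 37.5% (18.5 to 61.4%) in ESC. The other shared domains had 55.9% and 64.0%, so the iPSC interval ended barely below them. Within the stretches, any H3K4me3 peak was found in 3 of the 5 low domains in iPSC and 1 in ESC, against 14 and 11 of the 23 other wide domains there. In iPSC those shares were alike, 60.0% and 60.9%, and in ESC they were 20% and 47.8%.

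H3K27ac was sparse. Firm iPSC H3K27ac peaks overlapped 2 of 21 domains (9.52%, 2.65 to 28.9%), against a background of 19.5% of all wide domains and 13.7% of the other shared ones, both inside the interval. Firm ESC peaks overlapped 1 of 21 (4.76%, 0.85 to 22.7%), against a background of 35.2% and 24.9% of the other shared domains, both above it. That interval did not stay below the other shared domains throughout: without the dense stretches the share was 6.25% (up to 28.3%), and with ESC peaks joined within 5 kb it was 16.7% (5.84 to 39.2%) against 32.2%. No H3K27ac peak of either cell type overlapped the 8 widest domains (0%, up to 32.4%). Of the 345 other shared domains of 20 kb or more, 15.7% held one in iPSC and 31.0% in ESC. Both values lie inside that interval, so the 0 cannot be set apart from them. The ESC list was also the larger, with 367967 peaks on these chromosomes against 209925 in the iPSC list.

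**Figure D5:**
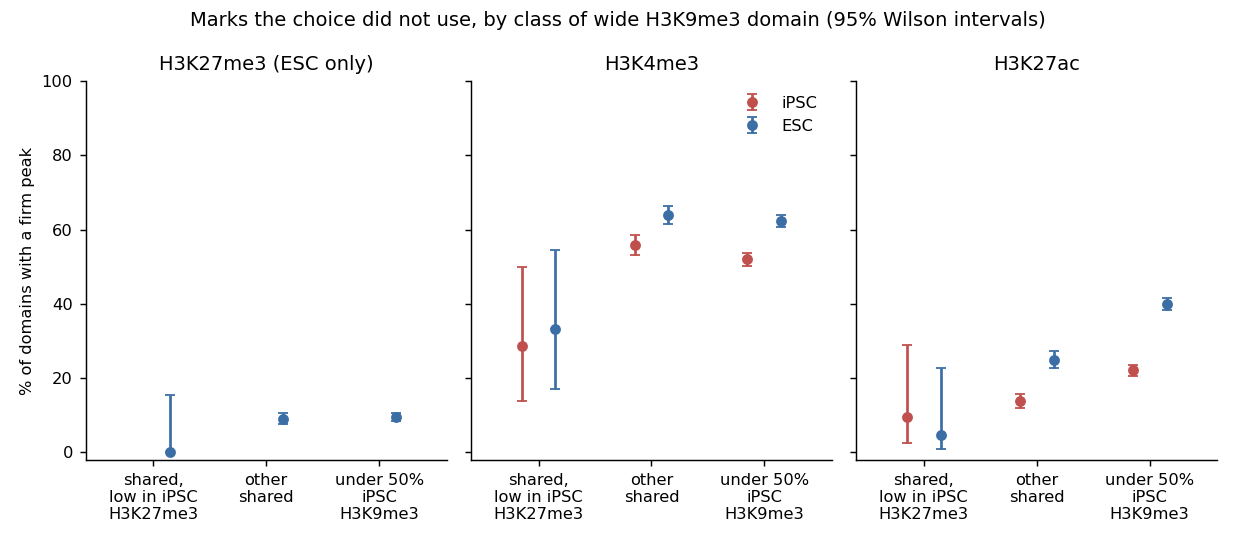
Percent of domains with a firm peak (y axis) of ESC H3K27me3, H3K4me3 and H3K27ac in the 21 low domains, the 1390 other shared domains and the 3186 domains with under 50% iPSC H3K9me3; points are iPSC (red) and ESC (blue) and bars are 95% Wilson intervals. The H3K4me3 points of the low domains, 28.6% in iPSC and 33.3% in ESC, lie under both other classes, with wide intervals.

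The promoter and enhancer marks that did occur were concentrated in a few short domains. The 10.4-kb domain at chr14:54970036-54980444 was the most marked: H3K4me3 covered 12.04% of it in iPSC, in 2 peaks, and 9.60% in ESC, in 3 peaks. H3K27ac covered 8.02% of it in iPSC, in 2 peaks, and 10.02% in ESC, in 5 peaks, and it was the single domain with H3K27ac in both. Its strongest H3K4me3 peak had a fold of 5.90 in iPSC, the highest of the 21, and 3.77 in ESC. At chr4:35175804-35187293, the domain with no iPSC H3K27me3, no iPSC H3K4me3 peak was found, while 5 ESC peaks covered 12.5%, with a highest fold of 4.87. This was the clearest one-sided case, and the nearest firm iPSC H3K4me3 peak lay 2.19 kb outside. At chr17:68579887-68592481, H3K4me3 covered 4.02% in iPSC and 4.73% in ESC, and H3K27ac covered 1.29% in iPSC and none in ESC.

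Domains bare of both active marks made up 42.9% of the set. In 9 of the 21 (interval 24.5 to 63.5%) no H3K4me3 and no H3K27ac peak of either cell type overlapped. Among the other shared domains 14.2% were bare in this way, and among the wide domains that were not shared 14.1% were. The share of bare domains was not taken by width or with other joining distances. In the 10 to 20 kb group and with joining within 5 kb, the intervals of the firm H3K4me3 shares took in the other shared domains. Whether the share of bare domains would stay apart there was not tested. The widest of the 9 was chr5:16909273-16968415, followed by chr8:42253320-42297696, chr6:46285380-46326724 and both chromosome 1 domains. The 241-kb domain held a single H3K4me3 peak of 226 bp, in iPSC, which was not firm, and chr8:42301226-42346014 held 1 of 145 bp in iPSC, also not firm. At chr6:46060912-46107967 a firm H3K4me3 peak of 145 bp in iPSC and of 248 bp in ESC was present.

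Firm H3K27ac lay further from the dense-stretch domains than from most of the others, and the ranges overlapped in iPSC. The nearest firm H3K27ac peak of the 5 dense-stretch domains was 58.2 to 544 kb away in iPSC and 58.2 to 417 kb away in ESC. Of the other 16 it was 0 to 119 kb away in iPSC, with a median of 12.2 kb, and 0 to 36.3 kb away in ESC, with a median of 9.36 kb, where 0 is an overlap. For firm H3K4me3 the ranges overlapped in both cell types. They were 0 to 58.2 kb in iPSC and 0 to 106 kb in ESC for the dense-stretch domains. For the other 16 they were 0 to 84.9 kb in iPSC and in ESC, with medians of 2.44 kb and 2.42 kb. Far from firm H3K4me3 among these were chr12:114849919-114860193, at 84.9 kb in both, and chr2:119978560-119994567, at 65.9 kb in both.

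By chromosome, the domains were spread over 11 of 19. Chromosome 6 held 4, chromosome 8 held 3, chromosomes 1, 4, 5, 14 and 17 held 2 each, and chromosomes 2, 7, 11 and 12 held 1 each. Chromosomes 3, 9, 10, 13, 15, 16, 18 and 20 held none, and chromosome 3 had 117 shared wide domains. On the 11 chromosomes, the share of shared wide domains that were low ran from 1.04% on chromosome 2 to 4.65% on chromosome 17. It was 3.17% on chromosome 6 and 2.75% on chromosome 8, against 1.49% over all 19. These shares rest on few domains each and were not tested. The fourth domain of chromosome 6, at chr6:47846251-47860218, was 13.97 kb long and outside the dense stretch, with H3K9me3 over 62.9% in iPSC and 59.3% in ESC and a firm H3K4me3 peak in both. By length, chromosome 6 held 344 kb and chromosome 8 held 103 kb of the summed 708 kb.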

How the data were processed

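The submitters' processing notes name deepTools, MACS2, Picard and SAMtools 1.10. The sources used here do not give the aligner, the build, the calling thresholds or the pooling of libraries and inputs. The 8 deposited lists, 1 per cell type and mark, give each peak a fold enrichment, a ratio that the authors' caller computed, and a −log10 q. The deposited −log10 p columns were not used. The peaks of a list were merged, and coverage is the percent of a domain's length under them. An overlap needed 1 bp, and a chromosome was taken to end where its last peak in any list ended. Firm means a −log10 q from 5 (narrow lists) or 2 (broad lists) upward. No read counts were used, no test was run, and shares carry 95% Wilson intervals. The gene table at hand, for the assembly Panubis1.0, ended over 5 Mb from the lists on 12 of 21 chromosomes and was not joined. Domains were named by rule: the 10 widest, the widest without H3K4me3 and H3K27ac, the 3 with most H3K4me3 and most H3K27ac (2 had any), and those nearest each limit; chr8:78460013-78473792, chr6:47846251-47860218 and the stretch neighbours were named after their values were seen. The domains and measures were chosen with earlier results of these data known. Interval code was checked on simulated data. Python 3.11.15, numpy 2.4.6 and pandas 2.3.3 were used.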

Additional observations from a re-analysis of the deposited data

How the results depend on the processing

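With 1 list per cell type and mark, no library could be left out and depth is unknown, and all values rest on 21 domains. No paired analysis was possible because each result comes from no test. Joining within 1 kb gave 28 domains, which overlapped 8 of the 21, with a median strongest iPSC H3K9me3 fold of 3.24. Firm H3K4me3 was then in 10.7% in iPSC and 7.14% in ESC, against 47.1% and 48.4% of the other shared domains. H3K27ac was in 0% of both (up to 12.1%), against 6.99% in iPSC and 12.8% in ESC, of which the ESC value alone lies above the interval. Joining within 5 kb gave 18, with H3K4me3 in 38.9% in iPSC and 50% in ESC and H3K27ac in 16.7% of both, and the intervals of all 4 then took in the other shared domains. Chromosome 19 added gave 26. At 20 kb or more, 8 were left, with H3K4me3 in 12.5% in iPSC and 12.5% in ESC and H3K27ac in 0% of both. The H3K27ac intervals ran up to 32.4% and took in the other shared domains, with 12.5% in iPSC and 24.3% in ESC. At 80% iPSC H3K9me3, 2 were left, with iPSC H3K4me3 in 50% and H3K27ac in 0% of both. With no iPSC H3K27me3, 1 was left, with H3K4me3 in 0% in iPSC and 100% in ESC, H3K27ac in 0% of both, and an ESC H3K9me3 fold of 4.07. With firm H3K9me3 and H3K27me3 peaks in the rule, 98 domains passed, overlapping 12 of the 21, and 12 of the 98 lay on them. Firm H3K4me3 was then in 24.5% in iPSC and 31.6% in ESC, against 58.6% and 65.6% of the other shared domains. H3K27ac was in 4.08% and 12.2%, against 12.6% and 22.8%, and ESC H3K27me3 was in 1.02% (up to 5.56%), against 9.21%. The intervals of these shares all lay below the other shared domains. Stricter limits of 10 and 3 on −log10 q left H3K4me3 in 14.3% in iPSC and 14.3% in ESC and H3K27ac in 0% of both. Domains built from iPSC peaks, an alternative chosen after seeing the data like that without the dense stretches, numbered 52 and overlapped 12 of the 21 (57.1%, and 23.1% of the 52). The number and identity of the domains thus depend on the rule, and the cause was not tested.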
